A study of Saccharomyces cerevisiae with 24 samples.

Results

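The endocytic coat genes of budding yeast (Saccharomyces cerevisiae) described here are EDE1, SYP1, YAP1801, YAP1802, ENT1, ENT2, SLA2, SLA1, PAN1 and END3. They were chosen by name and locus, not by their values, although earlier results of these data were known. They are 10 of the 5843 rows of the haploid table and 10 of the 5730 rows of the diploid table. All 10 had a mean of at least 10 normalised counts in both tables and were tested in every comparison. Normalised counts are the reads per gene divided by a size factor for the library.

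Poly(A) RNA was sequenced from 8 strains, 3 libraries each, to compare yeast cells with different actins. Haploid cells came from the strains named Sc[Ca], Sc[Sp] and Sc[At], from N2 and from Ca, with ScNI as their wild type, and the diploid strain N2/Ca had Sc/Sc as its wild type. The labels give no further genotype for these names and do not say whether a strain is 1 clone, so the names are used as they stand. Cells of every strain were taken from cultures in log phase in the rich glucose medium YPD at 25 °C, with no other treatment.

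The coat gathers membrane and cargo at sites of clathrin-mediated endocytosis before actin is assembled there. Early proteins mark the site, adaptors and epsins join clathrin to membrane lipid and cargo, and the late coat brings in activators of branched actin, whose force drives the membrane inward. In yeast, where turgor presses the membrane outward, this uptake depends on actin filaments, so the coat is studied beside the actin patch.

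Depth was 10228523 to 15403081 reads in the 18 haploid libraries and 12128284 to 15134814 reads in the 6 diploid libraries. Several libraries stood apart. In Ca replicates 1 and 2 and in N2 replicates 1 to 3 the median gene of chromosome XIII lay at log2 0.51 to 0.93 over the ScNI mean, with values of 0.50 to 0.92 for chromosome VI, whereas Ca replicate 3 had −0.01 and 0.05. No coat gene lies on chromosomes VI, XI or XIII. Replicate 2 of each haploid strain had the MATalpha pattern, with 42260.5 to 92519 summed normalised counts of STE3, MF(ALPHA)1, MF(ALPHA)2 and SAG1, against 687 to 1408 in the other haploid libraries. Each haploid strain therefore holds the same mix of mating types. Sc/Sc replicate 3 differed from the other Sc/Sc libraries, over all genes to a degree that varied with gene length, and is described with the diploids.

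The members lie on 8 chromosomes of build R64, and no member's coding sequence overlaps another annotated gene. EDE1 (YBL047C, II:127895-132040, minus strand) encodes an Eps15-like scaffold and SYP1 (YCR030C, III:173826-176438, minus strand) an F-BAR protein, and both arrive early. YAP1801 (YHR161C, VIII:420373-422286, minus strand) and YAP1802 (YGR241C, VII:974875-976581, minus strand) encode AP180-type clathrin adaptors. ENT1 (YDL161W, IV:167714-169078, plus strand) and ENT2 (YLR206W, XII:554578-556419, plus strand) encode epsins. SLA2 (YNL243W, XIV:188051-190957, plus strand) encodes a Hip1R-type link between membrane and actin. SLA1 (YBL007C, II:212632-216366, minus strand), PAN1 (YIR006C, IX:365466-369908, minus strand) and END3 (YNL084C, XIV:470053-471102, minus strand) encode the late coat complex, in which Sla1 binds cargo and the actin nucleation factor Las17, and Pan1 activates the Arp2/3 complex.

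The epsins and the AP180-type adaptors are paralogue pairs, so the longest run of identical bases in each pair is shown to set it against the read length of 50 bases. The aligned coding sequences of ENT1 and ENT2 were identical at 71.1% of positions and those of YAP1801 and YAP1802 at 63.0%. The lines give the coding strand with the identical run in capitals and up to 15 bases on either side, from the RefSeq R64 sequence at chrIV:167894-167940, chrXII:554758-554804, chrVIII:420575-420624 and chrVII:974897-974946.
ENT1: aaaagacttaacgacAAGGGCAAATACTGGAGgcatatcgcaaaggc
ENT2: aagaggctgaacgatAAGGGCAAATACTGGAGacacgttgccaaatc
YAP1801: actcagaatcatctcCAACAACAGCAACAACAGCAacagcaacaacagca
YAP1802: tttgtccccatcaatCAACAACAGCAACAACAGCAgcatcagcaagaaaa

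The identical runs are 17 and 20 bases long, shorter than a read. No window of 50 bases in the coding sequence of any member other than PAN1 was found elsewhere in the genome, and for PAN1 it was 8 of 4394 windows, or 0.182%. How reads were assigned to genes, and whether strand was used, is not stated in the labels.

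Promoters are shown for the members whose levels passed a test against ScNI and for EDE1, which stood out in the diploids. The windows begin 300 bases before the start codon and are 200 bases long, on the gene's strand, from RefSeq R64 at chrII:132141-132340, chrIII:176539-176738, chrVIII:422387-422586, chrVII:976682-976881 and chrII:216467-216666. Capitals mark matches, on either strand, to AGGGG, the core of the Msn2/4 stress element, or to CNCGAAA, a motif of Swi4.
EDE1: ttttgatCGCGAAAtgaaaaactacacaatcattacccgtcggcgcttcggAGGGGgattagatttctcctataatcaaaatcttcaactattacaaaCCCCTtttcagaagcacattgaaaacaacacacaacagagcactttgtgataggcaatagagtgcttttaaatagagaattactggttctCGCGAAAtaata
SYP1: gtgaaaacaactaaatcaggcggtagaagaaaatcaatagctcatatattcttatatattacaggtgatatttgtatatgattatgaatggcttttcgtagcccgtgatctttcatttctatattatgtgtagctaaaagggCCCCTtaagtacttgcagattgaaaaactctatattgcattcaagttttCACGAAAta
YAP1801: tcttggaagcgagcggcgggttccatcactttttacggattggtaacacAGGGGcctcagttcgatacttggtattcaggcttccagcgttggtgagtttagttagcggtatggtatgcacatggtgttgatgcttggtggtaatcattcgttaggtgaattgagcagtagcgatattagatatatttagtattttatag
YAP1802: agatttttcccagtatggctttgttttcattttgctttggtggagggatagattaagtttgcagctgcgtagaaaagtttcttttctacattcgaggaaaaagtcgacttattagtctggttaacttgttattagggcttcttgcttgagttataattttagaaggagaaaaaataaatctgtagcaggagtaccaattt
SLA1: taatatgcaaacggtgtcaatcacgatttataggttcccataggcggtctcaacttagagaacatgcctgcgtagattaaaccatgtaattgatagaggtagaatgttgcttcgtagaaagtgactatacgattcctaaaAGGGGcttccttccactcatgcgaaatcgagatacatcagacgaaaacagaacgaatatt

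AGGGG occurred in the windows of 6 of the 10 members (EDE1, SYP1, YAP1801, SLA1, PAN1 and END3) and in 16.3% of 6001 promoters. CNCGAAA occurred in 2 of the 10, EDE1 and SYP1, and in 11.2% of all promoters, and ACGCGT, the Mbp1 motif, in none of the 10 and in 2.92% of all promoters. The matches did not overlap each other, and a match is a description of the letters only. The SLA1 window overlaps the neighbouring gene YBL006C and the END3 window YNL083W.

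Levels were compared between genes per kb of coding length. In ScNI, END3 had the highest level at 2238 ± 129.7 normalised counts per kb (SD, n = 3), followed by ENT2 at 1746 ± 33.5 and ENT1 at 1504 ± 93.1. SLA1 came next at 1120.1 ± 51.7, and SYP1 was lowest at 669.9 ± 19.5 after PAN1 at 839.6 ± 45.2. The libraries of these neighbours in the order did not overlap. YAP1801 (1025 ± 35.5), SLA2 (1024 ± 34.9), YAP1802 (1016 ± 74.4) and EDE1 (956 ± 32.0) stood between SLA1 and PAN1, and among these 4 the libraries of neighbours overlapped.

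END3 was highest and SYP1 lowest by mean in each of the 8 strains. In Sc/Sc, END3 was at 2002 ± 452 normalised counts per kb and SYP1 at 531 ± 128 (SD, n = 3), and only END3 had libraries that did not overlap those of the next gene. Over the 18 haploid libraries the mean level ranged between 2208 per kb for END3 and 668 per kb for SYP1, which placed the members between percentiles 83.4 and 49.9 of all genes by level per kb.

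**Figure D1:**
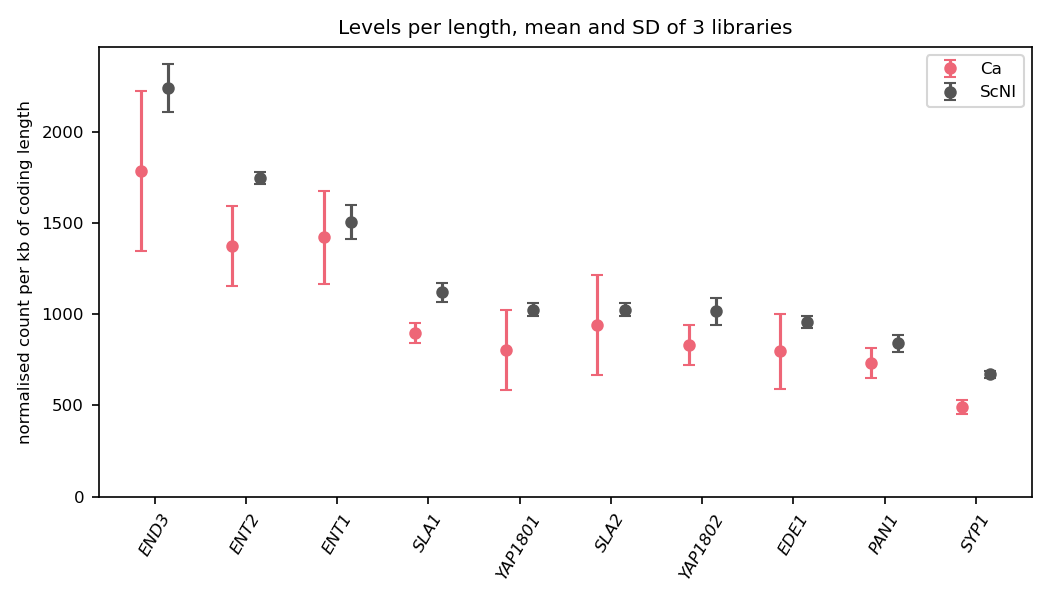
Normalised counts per kb of coding length (vertical axis) of the 10 coat genes in the Ca and ScNI strains; points are means and bars the SD over 3 libraries. END3 is highest and SYP1 lowest in both strains, and the Ca mean lies below the ScNI mean for every gene.

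Across the 6 haploid strains, 9 of the 10 members differed in a limma F test, against 60.6% of the 5808 genes tested. YAP1802 had the smallest adjusted p, 0.00102, followed by SLA1 at 0.00174 and SYP1 at 0.00226. ENT1 was the member that did not pass (adjusted p = 0.16). Without Ca replicate 1, Ca replicate 2 or Sc[Sp] replicate 1 the count was 6, where 57.7%, 60.0% and 52.8% of genes differed, and without Ca replicate 3 it was 10, where 78.5% did. SLA2 (adjusted p = 0.037) was lost in most fits with 1 library left out.

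**Figure D2:**
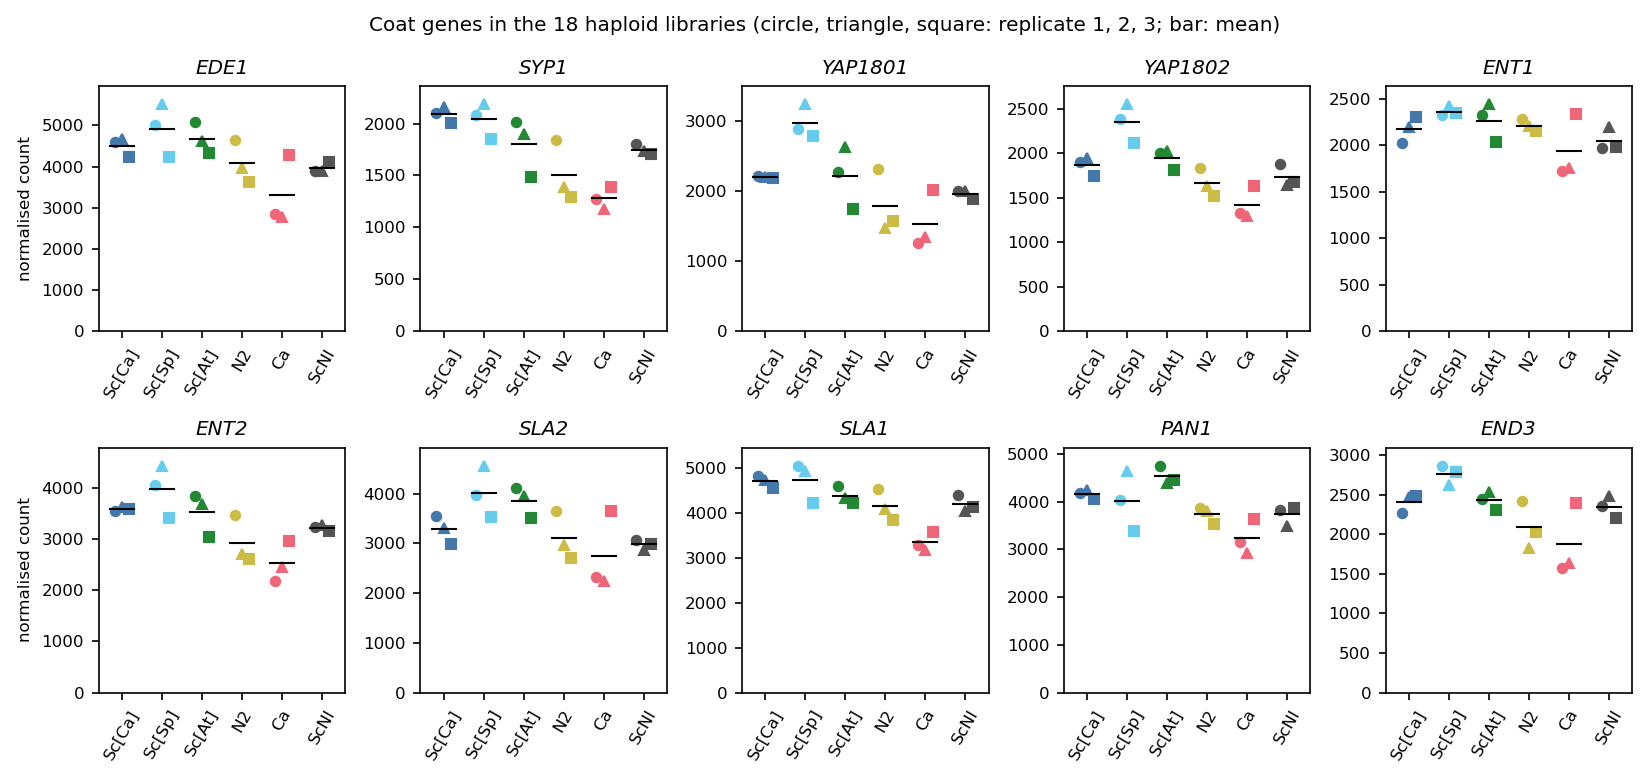
Normalised counts (vertical axes, from 0) of each coat gene in the 18 haploid libraries by strain; circles, triangles and squares are replicates 1, 2 and 3 and bars are means. Sc[Sp] stands highest for YAP1801 and YAP1802. Ca replicates 1 and 2 stand below every ScNI library for all 10 genes, as they do for 43.7% and 44.4% of all genes.

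The members varied together over these 18 libraries. Each member's log2 level correlated with the mean of the other 9 at a Pearson r between 0.775 (PAN1) and 0.971 (ENT2), and the median over the 45 pairs of members was 0.826. SLA2 and EDE1 were the most alike pair (r = 0.950) and PAN1 and ENT1 the least alike (0.589). The AP180-type adaptors YAP1801 and YAP1802 reached 0.933 and the epsins ENT1 and ENT2 0.747. The genes outside the list most like the mean of the members were HER1 (0.989), KIN1 (0.978), AIM3 (0.974), RGC1 (0.969) and PYK2 (0.965). These values describe 18 points that share strains, normalisation and replicate numbers.

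The 3 ScNI libraries are the controls of 5 comparisons. A gene is called higher or lower at a limma adjusted p under 0.05 over all genes of its table, and folds are on the log2(normalised count + 1) scale. The labels do not say what the replicates are, so p-values measure the spread between these samples, part of which may be technical. In the haploid strains that spread takes in the mating-type pattern of replicate 2 and, in Ca and N2, differences in chromosome levels. In bulk RNA, a change in the make-up of the culture and a change in RNA per cell cannot be told apart.

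Sc[Sp] had the highest coat levels of the haploid strains for 8 of the 10 members and rose above ScNI for the AP180-type adaptors. Against ScNI 2 of 10 members were higher and none lower, beside 10.1% of all genes called higher and 10.9% called lower. All 10 folds were positive, as were 47.9% of those of all genes, with a median log2 of 0.26 over the members and −0.02 over all genes, and for 8 members the Sc[Sp] libraries all lay above the ScNI libraries, as they did for 27.1% of genes.

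YAP1801 had 2888, 3242 and 2787 normalised counts in Sc[Sp], against 1996, 2005 and 1883 in ScNI. The strains did not overlap, and every Sc[Sp] library exceeded every other haploid library. The mean was 2973 ± 239 in Sc[Sp] and 1962 ± 67.9 in ScNI (SD, n = 3 each), a log2 fold of 0.60 (SE 0.19, limma adjusted p = 0.037). The call did not hold without any 1 of the 6 libraries of these strains, with adjusted p between 0.062 and 0.12, nor with the replicate number as a block (0.054).

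YAP1802 had 2386, 2556 and 2116 normalised counts in Sc[Sp], against 1879.9, 1646 and 1676 in ScNI. Again the lowest Sc[Sp] library lay above the highest ScNI library. The log2 fold was 0.44 (SE 0.10, limma adjusted p = 0.012). It passed in 4 of 6 fits with 1 library left out, and missed without Sc[Sp] replicate 2 or ScNI replicate 3, where the highest adjusted p was 0.059.

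SLA2, the membrane-to-actin link, had 3969, 4561 and 3522 normalised counts in Sc[Sp], against 3071, 2869 and 2989 in ScNI. All 3 Sc[Sp] libraries were above ScNI, but the difference missed the threshold (log2 0.43, SE 0.16, limma adjusted p = 0.074). The early proteins and the epsins were also apart, with log2 0.30 for EDE1, 0.22 for SYP1, 0.21 for ENT1 and 0.29 for ENT2, and limma adjusted p between 0.12 and 0.24. In the late coat END3 was apart at log2 0.23, while SLA1 at 0.17 and PAN1 at 0.10 overlapped ScNI.

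The spread of the other haploid strains entered this test. Fitted without the other strains, Sc[Sp] and ScNI gave 8 members higher (all but SLA1 and PAN1), against 23.2% of genes. Leaving the N2 and Ca strains out of the fit gave 6, beside 19.8% of genes called higher. With genes centred on others of like coding length, a setting chosen after seeing the data, SLA1 and SLA2 passed as well, giving 4, beside 10.7% of genes.

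Sc[Ca] held all members slightly above ScNI, with none called. In limma 0 of 10 passed, with 0 of 10 also at an unadjusted p under 0.05, and edgeR and DESeq2 likewise called 0. The background was low, at 0.0172% of genes called and 4.03% at an unadjusted p under 0.05. The folds were all positive, against 50.1% over all genes, between log2 0.03 for END3 and 0.26 for SYP1, with a median of 0.16 over the members and 0.00 over all genes.

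SYP1, the F-BAR protein, had 2103, 2165 and 2003 normalised counts in Sc[Ca], against 1808, 1734 and 1709.9 in ScNI. YAP1801 had 2210.0, 2206 and 2192 in Sc[Ca], against 1996, 2005 and 1883 in ScNI. In both genes every Sc[Ca] library was above every ScNI library, and YAP1801 averaged 2203 ± 9.55 in Sc[Ca] (SD, n = 3). The same separation held for 6 members (SLA1, PAN1, ENT2, EDE1, SYP1 and YAP1801), against 17.5% of genes. In a fit of the 6 libraries of Sc[Ca] and ScNI alone, these 6 members were called higher, beside 7.89% of genes.

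Sc[At] gave no called member, and the late coat gene PAN1 came nearest. In limma 0 of 10 passed, beside 15.3% of all genes in either direction, and 2 of 10 had an unadjusted p under 0.05, against 30.5% of genes. edgeR called 0 and DESeq2 1, which was PAN1, beside 10.8% of genes called higher in DESeq2. All 10 folds were positive, against 49.6% over all genes, with a median of log2 0.15, although 8 were with genes centred on others of like length.

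PAN1 had 4754, 4386 and 4449.8 normalised counts in Sc[At], against 3829, 3499 and 3862 in ScNI. The strains did not overlap (log2 0.28, SE 0.10, limma adjusted p = 0.081). SLA2 had 4106, 3947 and 3513 in Sc[At], against 3071, 2869 and 2989 in ScNI. It too lay wholly above ScNI (log2 0.37, SE 0.16, limma adjusted p = 0.14). EDE1, at log2 0.24, completed the 3 members whose libraries lay wholly above ScNI, against 20.9% of genes. In the fit of the 6 libraries alone, PAN1 and SLA2 were called higher, beside 11.4% of genes.

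Set against each other, Sc[Sp] and Sc[At] gave 0 of 10 called members in limma, edgeR and DESeq2, with 2 at an unadjusted p under 0.05, beside 13.5% of genes called and 30.2% at an unadjusted p under 0.05. YAP1801 differed by log2 0.44 (95% confidence interval 0.04 to 0.84) and YAP1802 by 0.27 (0.04 to 0.49), and PAN1 by −0.18 (−0.41 to 0.04). Of the 10 folds 9 were positive, against 50.1% over all genes. YAP1801, YAP1802 and END3 had Sc[Sp] libraries above all Sc[At] libraries, as did 16.6% of genes. The fit without the N2 and Ca strains called YAP1801 and YAP1802 higher in Sc[Sp], beside 13.7% of genes higher and 17.7% lower.

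N2 stayed around ScNI. In limma, edgeR and DESeq2 0 of 10 members passed, with 0 at an unadjusted p under 0.05, beside 29.1% of genes called (16.5% higher and 12.6% lower) and 40.5% at an unadjusted p under 0.05. The split was 18.4% higher and 8.9% lower with scaling factors made without chromosomes VI, XI and XIII, and 14.0% and 17.3% with genes centred on others of like length. The folds split into 4 positive and 6 negative ones, with 49.6% positive over all genes, between log2 −0.23 for SYP1 and 0.11 for ENT1, and the members split 5 to 5 under that scaling, 3 to 7 in edgeR and 1 to 9 with length centring. The 95% confidence intervals reached at most 0.56 in size, for YAP1801 (−0.56 to 0.24).

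The N2 libraries differed among themselves. SYP1 had 1840.2, 1388 and 1292 normalised counts in N2 replicates 1, 2 and 3, against 1808, 1734 and 1709.9 in ScNI. Replicate 1 was above all ScNI libraries and replicates 2 and 3 below them. YAP1801 showed the same split, with 2323, 1477 and 1569.7 in N2 and 1996, 2005 and 1883 in ScNI. Over the 10 members the median log2 against the ScNI mean was 0.11 in replicate 1 and −0.06 and −0.16 in replicates 2 and 3, and the median of chromosome XIII was 0.51, 0.93 and 0.92 in the same order. Without N2 replicate 1, SYP1 alone of the members was called lower than in ScNI (limma adjusted p = 0.019), beside 15.9% of genes.

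Ca had the lowest mean for all 10 members among the haploid strains, and fell below ScNI for SYP1, SLA1 and YAP1802. Against ScNI 3 of 10 members were lower and none higher, beside 14.2% of genes called lower and 16.0% called higher. With scaling factors made without chromosomes VI, XI and XIII these shares were 10.3% and 18.1%, and 2 members (SLA1 and SYP1) were lower. In the fit of the 6 libraries alone 1 member, SYP1, was lower, beside 5.53% of genes. In the fit of all haploid libraries the members' folds were all negative, while 50% were positive over all genes. The median was log2 −0.31 over the members and −0.00 over all genes. For 4 members the Ca libraries all lay below the ScNI libraries, as they did for 21.2% of genes.

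SYP1 had 1272, 1180.2 and 1389 normalised counts in Ca, against 1808, 1734 and 1709.9 in ScNI. Every Ca library was below every ScNI library. The mean was 1280.5 ± 105 in Ca and 1750.4 ± 51.0 in ScNI (SD, n = 3 each), a log2 fold of −0.45 (SE 0.13, limma adjusted p = 0.018). The call was lost without Ca replicate 2 or ScNI replicate 1, with a highest adjusted p of 0.059.

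SLA1, the cargo-binding member of the late coat, had 3290.2, 3175 and 3564 normalised counts in Ca, against 4400.3, 4030.3 and 4119.6 in ScNI. The strains did not overlap. The log2 fold was −0.32 (SE 0.08, limma adjusted p = 0.011), and it passed in 5 of 6 fits with 1 library left out, missing at 0.050 without ScNI replicate 1. YAP1802 had 1325, 1296 and 1631 in Ca, against 1879.9, 1646 and 1676 in ScNI. Its libraries did not overlap either (log2 −0.30, SE 0.10, limma adjusted p = 0.044). YAP1802 passed in 1 of 6 fits with 1 library left out, the fit without Ca replicate 3, with a highest adjusted p of 0.16. It was not called in the 6 libraries alone, with the replicate block or with length centring. Scaling without chromosomes VI, XI and XIII did not call it either.

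ENT2, an epsin, was also wholly below ScNI, at log2 −0.36 (SE 0.13, limma adjusted p = 0.054), without passing. The remaining 6 members divided by Ca library. EDE1 had 2847, 2772 and 4282 normalised counts in Ca, against 3885, 3891 and 4118 in ScNI. Replicates 1 and 2 were below and replicate 3 above all ScNI libraries. SLA2 had 2320.5, 2237 and 3651 in Ca, against 3071, 2869 and 2989 in ScNI. END3 had 1577, 1639 and 2402 in Ca, against 2359, 2482 and 2209.9 in ScNI. In both, replicates 1 and 2 were low, and replicate 3 lay above the ScNI libraries for SLA2 and among them for END3.

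Over all 10 members, Ca replicates 1 and 2 stood between 63.8% and 85.5% of the ScNI mean, and Ca replicate 3 between 79.4% and 123%. The median log2 over the members was −0.42 and −0.41 in Ca replicates 1 and 2 and 0.00 in replicate 3. The median of chromosome XIII was 0.87, 0.89 and −0.01 in the same libraries. For chromosome XI the median reached 0.54 in the first of the Ca libraries. The part of these chromosomes in the coat levels was not tested.

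**Figure D3:**
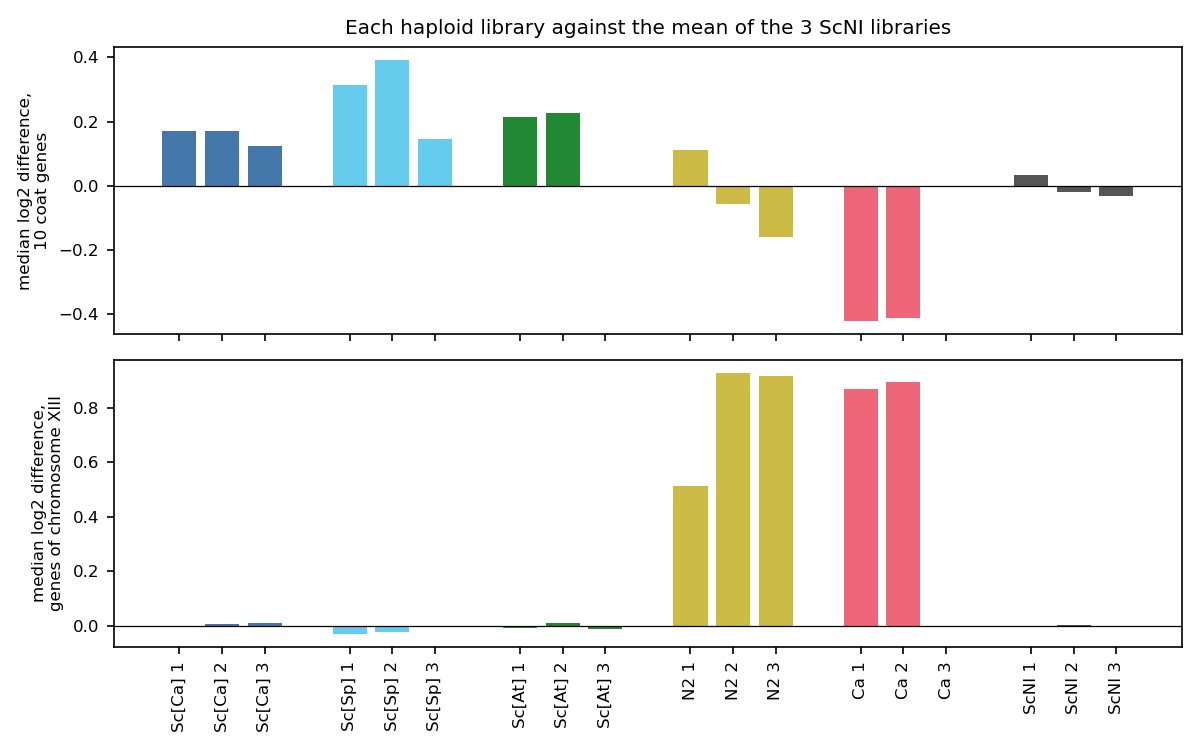
Upper bars give the median log2 difference of the 10 coat genes from the mean of the 3 ScNI libraries, and lower bars that of all genes of chromosome XIII, in each haploid library. Ca replicates 1 and 2 pair the lowest coat medians, −0.42 and −0.41, with chromosome XIII at 0.87 and 0.89, and Ca replicate 3 is near 0 in both; N2 replicates 2 and 3 have coat medians of −0.06 and −0.16 with chromosome XIII at 0.93 and 0.92.

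Without Ca replicate 3 all 10 members were lower in Ca than in ScNI, beside 22.5% of genes called lower. END3 then had a log2 fold of −0.55 (SE 0.10, limma adjusted p = 0.00064), EDE1 −0.50 (0.0032) and YAP1801 −0.60 (0.011). ENT1 had the smallest fold, −0.24 (0.030). Without ScNI replicate 1 the count in limma was 0, beside 9.33% of genes called lower, and without Ca replicate 2 it was 1, beside 12.4%. Without Ca replicate 1, ScNI replicate 2 or ScNI replicate 3 it was 2, beside 9.65%, 8.2% and 9.62% of genes. All folds in these 6 fits were negative.

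Ca against N2 gave 0 of 10 called members in limma and edgeR and 1, SLA1, in DESeq2, with 3 at an unadjusted p under 0.05. All genes were at 0.517% called and 10.8% at an unadjusted p under 0.05 in limma, and at 0.861% called lower in DESeq2. The folds were all negative, with 46.5% positive over all genes, between log2 −0.33 for EDE1 and −0.18 for END3. SLA1 had 3290.2, 3175 and 3564 normalised counts in Ca, against 4533, 4083 and 3847 in N2. It was the member whose libraries did not overlap, with log2 −0.31 (SE 0.08, limma adjusted p = 0.15), and 6.37% of genes were likewise apart below. Without Ca replicate 3, EDE1 (log2 −0.53, limma adjusted p = 0.030), SLA1 (−0.36, 0.048) and ENT1 (−0.35, 0.045) were lower in Ca than in N2, beside 1.6% of genes.

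Ca against Sc[Ca], the strains whose names share Ca, differed in most members in the fit of all haploid libraries. There 8 of 10 were lower in Ca and none higher, beside 19% of genes called lower and 20.6% called higher. All 10 folds were negative, with 49.9% positive over all genes, and the median log2 was −0.44 over the members and −0.00 over all genes. SLA2 (log2 −0.30, limma adjusted p = 0.16) and ENT1 (−0.18, 0.19) did not pass.

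SYP1 had 1272, 1180.2 and 1389 normalised counts in Ca, against 2103, 2165 and 2003 in Sc[Ca]. The highest Ca library was far below the lowest Sc[Ca] library. The log2 fold was −0.71 (SE 0.13, limma adjusted p = 0.00093). SLA1 had 3290.2, 3175 and 3564 in Ca, against 4820.3, 4723 and 4547 in Sc[Ca], again with no overlap (−0.49, SE 0.08, limma adjusted p = 0.00067).

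ENT2 had 2171, 2452 and 2963 normalised counts in Ca, against 3539, 3616 and 3577 in Sc[Ca]. YAP1801 had 1251, 1337 and 2021 in Ca, against 2210.0, 2206 and 2192 in Sc[Ca]. Both were apart, with Ca replicate 3 nearest to Sc[Ca], at log2 −0.51 and −0.55 (limma adjusted p = 0.0077 and 0.030). PAN1 (log2 −0.37), END3 (−0.39), EDE1 (−0.47) and YAP1802 (−0.40) also fell, and END3 and EDE1 overlapped Sc[Ca] through Ca replicate 3. In 6 members the libraries did not overlap, against 23.7% of genes.

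SLA1, SYP1, ENT2 and YAP1802 were called in all 6 fits with 1 library left out. Without Ca replicate 2 these 4 were the called members, beside 15.6% of genes called lower. Without Ca replicate 1 or Sc[Ca] replicate 2 there were 5 with PAN1, beside 14.5% and 13.8% of genes. Without Sc[Ca] replicate 1 or 3 there were 6, beside 14.4% and 14.3%, and without Ca replicate 3 there were 10, beside 26.3%. END3 and EDE1 were called in 2 of the 6 fits and YAP1801 in 1. The fit of the 6 libraries alone gave 5, without these 3, beside 11.3% of genes.

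**Figure D4:**
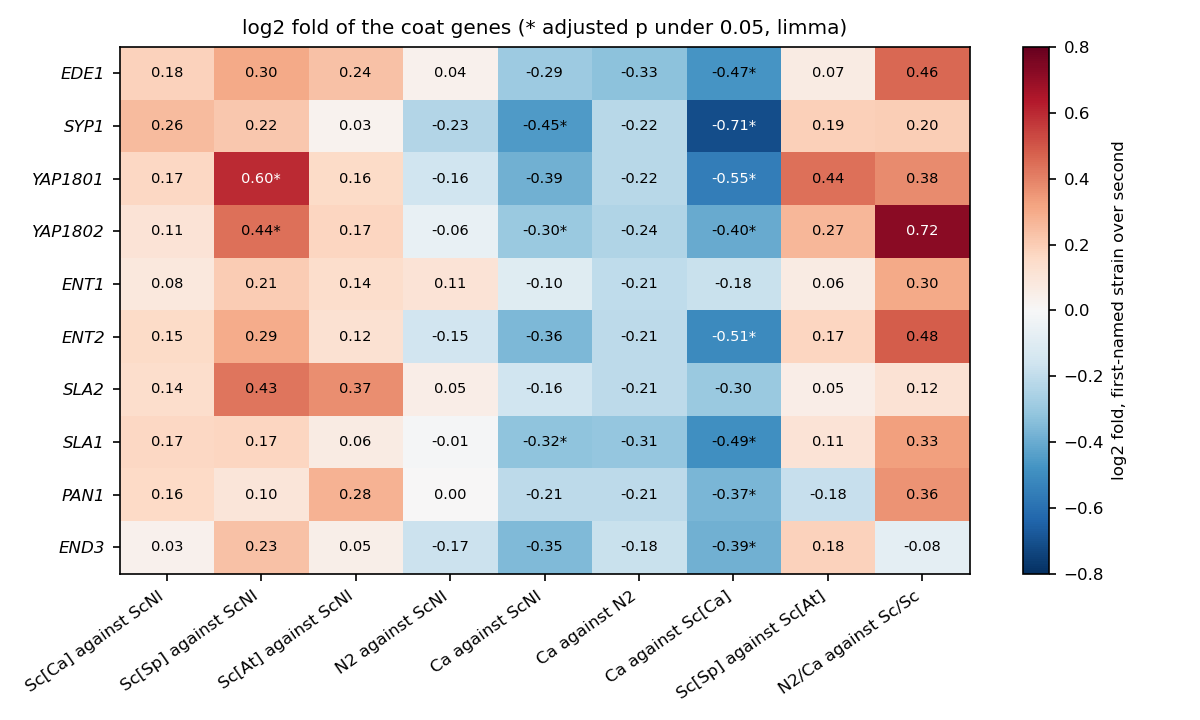
Colour and figures give the log2 fold of each coat gene (rows) in each comparison (columns), the strain named first over the second; an asterisk marks an adjusted p under 0.05 in limma. The Sc[Sp] column holds 2 marked genes, Ca against ScNI 3 and Ca against Sc[Ca] 8, and all folds of Ca in its 3 columns are negative.

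The balance within the paralogue pairs was taken per kb. The ratio of ENT1 to ENT2 was 1.07, 0.97 and 1.07 in Ca and 0.89, 1.10 and 1.12 in N2, against 0.82, 0.91 and 0.85 in ScNI. The Ca libraries lay above the ScNI range and N2 overlapped it. The ratio averaged 1.03 ± 0.06 in Ca and 0.86 ± 0.04 in ScNI (SD, n = 3 each), and no test was made of it. The ratio of YAP1801 to YAP1802 averaged 1.13 ± 0.05 in Sc[Sp] and 1.01 ± 0.07 in ScNI.

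N2/Ca gave no called member against Sc/Sc, and the calls changed with a single Sc/Sc library. In the deposited table these columns carry the name N19_Ca and were read as N2/Ca, the labelled diploid with Ca in its name. In limma 0 of 10 members passed, with 2 at an unadjusted p under 0.05, beside 14.4% of genes called and 33.6% at an unadjusted p under 0.05. Of all genes 8.59% were called higher and 5.76% lower, or 8.1% and 13.0% with genes centred on others of like length. edgeR called 0 and DESeq2 2, EDE1 and YAP1802, beside 12.4% of genes called higher in DESeq2. The folds were positive for 9 members, against 51.5% over all genes, or 7 with genes centred on others of like length, with a median of log2 0.34 over the members and 0.01 over all genes.

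EDE1 had 3544, 3791 and 3578 normalised counts in N2/Ca, against 2926, 2933 and 2163 in Sc/Sc. All N2/Ca libraries were above Sc/Sc, in which replicate 3 was lowest. The mean was 3638 ± 134 in N2/Ca and 2674 ± 442 in Sc/Sc (SD, n = 3 each), a log2 fold of 0.46 (SE 0.14, limma adjusted p = 0.057). YAP1802 had 1561, 1568 and 1487 in N2/Ca, against 1094, 1223 and 605 in Sc/Sc. It was likewise apart (log2 0.72, SE 0.24, limma adjusted p = 0.076), as was ENT2 (log2 0.48, SE 0.26, limma adjusted p = 0.23), and 22.4% of genes lay wholly above Sc/Sc.

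Sc/Sc replicate 3 held 9 of the 10 members at 0.479 to 0.738 of the mean of the other Sc/Sc libraries, and END3 at 1.44. SLA1 had 1877 normalised counts there, against 3684 and 4162 in Sc/Sc replicates 1 and 2. END3 had 2639 there, against 1925 and 1740.4. Over all genes the same library had a median log2 of 0.32 for coding lengths under 1000 bases and −0.29 for 2000 to 4000 bases, with a Spearman rho of −0.56 between length and the difference. The members' median was −0.79, or −0.65 relative to genes of like length. The coding lengths are 1050 bases for END3, 1365 for ENT1, which was at 0.641, and 4146 for EDE1, which was at 0.738. The part of gene length in the members' levels was not tested.

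**Figure D5:**
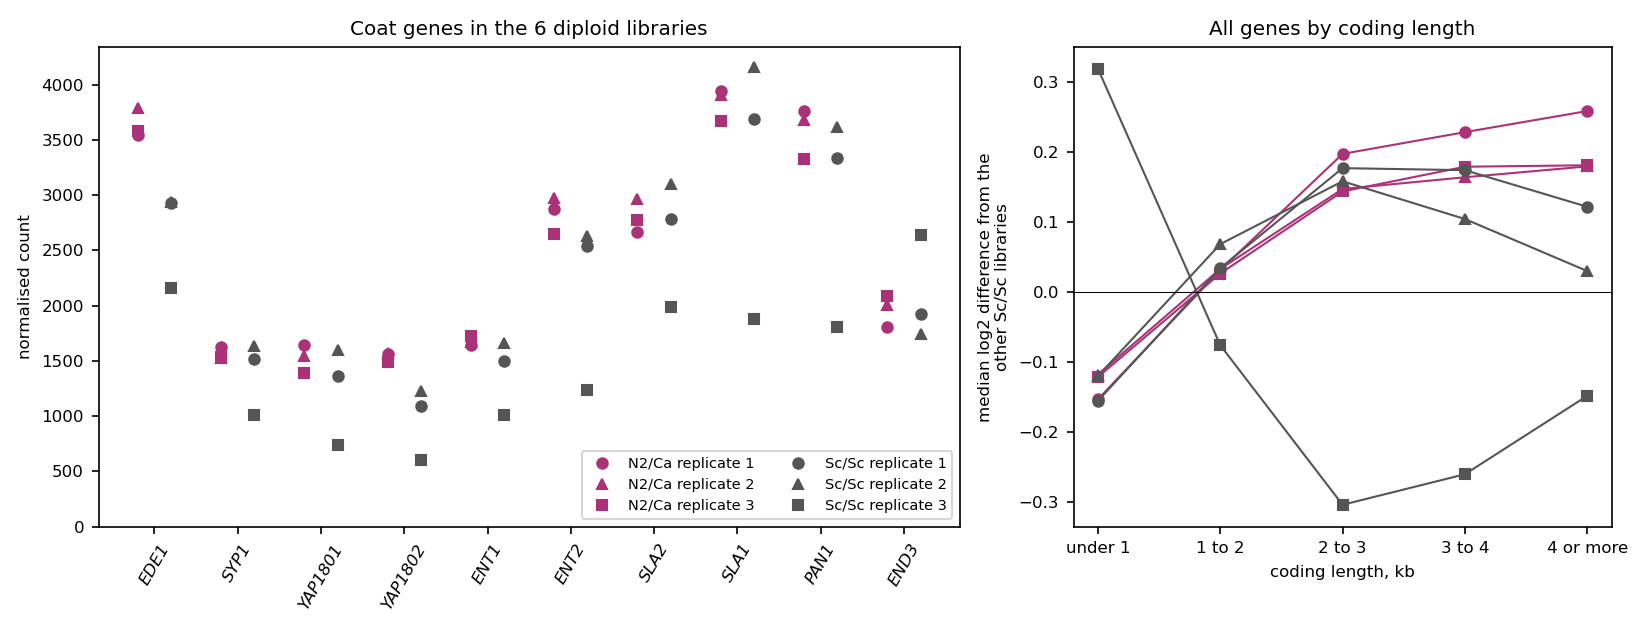
Left, normalised counts of the coat genes in the N2/Ca and Sc/Sc libraries; right, the median log2 difference of all genes from the other Sc/Sc libraries by coding length, with the same symbols. Sc/Sc replicate 3 (grey squares) is lowest for every coat gene but END3, where it is highest, and its medians are 0.32 for genes under 1 kb and −0.30 for 2 to 3 kb.

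Without Sc/Sc replicate 3, EDE1 (log2 0.31, limma adjusted p = 0.020) and YAP1802 (0.41, 0.014) were higher in N2/Ca, beside 12.6% of genes. The folds of the other 8 members then lay between −0.07 for SLA2 and 0.13 for ENT2. The ratio of YAP1801 to YAP1802 per kb averaged 0.88 ± 0.05 in N2/Ca and 1.12 ± 0.04 in Sc/Sc (SD, n = 3 each), was 0.94 at most in N2/Ca and 1.09 at least in Sc/Sc, and was not tested. N2/Ca replicate 1 had chromosome XIII at log2 0.46 and VI at 0.41 over Sc/Sc, the other N2/Ca libraries at most 0.04.

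A list of 43 further genes of the pathway was read from the same fits. Against ScNI, Sc[Sp] had 2 of the 43 higher and none lower, beside 10.1% and 10.9% of all genes. They were LAS17, the actin nucleation promoting factor, at log2 0.68 (SE 0.13, limma adjusted p = 0.0032) and ARC19, an Arp2/3 subunit, at 0.39 (0.041). Sc[At] had LAS17 higher at 0.71 (0.0043), VRP1, which binds Las17, higher at 0.86 (0.024), and GLC7, a protein phosphatase, lower at −0.32 (0.024), beside 8.44% of all genes called higher and 6.82% called lower. LAS17 averaged 1253 ± 215 normalised counts in Sc[Sp] and 1267 ± 93.7 in Sc[At], against 776 ± 72.3 in ScNI (SD, n = 3 each). Sc[Ca] had 0 of the 43 called in limma, edgeR and DESeq2, with 1 at an unadjusted p under 0.05. The median over the 43 genes was log2 0.22 in Sc[Sp], 0.15 in Sc[At] and 0.10 in Sc[Ca].

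These counts changed with the libraries that entered the fit. In fits of the 6 libraries alone Sc[Ca] had 15 of the 43 higher and none lower, beside 7.89% and 8.74% of all genes. Sc[Sp] then had 22 higher and 3 lower, beside 23.2% and 24.0%, and Sc[At] had 5 higher and 2 lower, beside 11.4% and 8.36%. Without the N2 and Ca strains Sc[Sp] had 22 higher and 2 lower, beside 19.8% and 21.9% of genes. Sc[At] had 13 and 5 in that fit, beside 16.3% and 14.8%. Sc[Ca] had none there, with 9 at an unadjusted p under 0.05, beside 0.0173% of genes called higher and 0.0518% lower. DESeq2 called 6 higher and 1 lower in Sc[Sp], beside 12.8% and 14.8% of genes. With 1 library left out, Sc[Sp] had 1 to 3 higher and none lower, beside 4.44% to 7.18% and 3.1% to 6.66% of genes. Sc[At] then had 1 to 2 higher and 0 to 1 lower, beside 3.48% to 9.26% and 1.79% to 7.71%.

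In N2, 2 of the 43 were higher and 4 lower than in ScNI, beside 16.5% and 12.6% of all genes. MYO5, a type I myosin on chromosome XIII, stood at log2 0.83 (SE 0.14, limma adjusted p = 0.0013). That chromosome's median was log2 0.51, 0.93 and 0.92 over the ScNI mean in N2 replicates 1, 2 and 3, and its part was not tested. LAS17 stood at 0.47 (limma adjusted p = 0.014), while the AP-2 subunit APS2 (−0.52, 0.0011) and the coat kinase gene ARK1 (−0.52, 0.010) fell. GTS1 (−0.34) and RVS161 (−0.38) fell too and are named after their values were seen. The number lower was 12 with genes centred on others of like length, beside 17.3% of all genes, and 9 without N2 replicate 1, beside 15.9%. It was 2 without N2 replicate 2 and 1 without N2 replicate 3, beside 6.06% and 5.89%. The 6 libraries alone gave 4 higher and 6 lower, beside 17.1% and 14.0%.

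In Ca, 11 of the 43 were lower than in ScNI and none higher, beside the 14.2% of all genes called lower. They were 3 of 6 clathrin and AP-2 genes, 3 of 7 other coat-associated genes, 3 of 5 kinase, phosphatase and ligase genes, 1 of 5 genes of scission and uncoating, 1 of 13 patch actin genes and none of the 7 genes of the Las17 module. YSC84, an actin-binding protein gene with a paralogue in the same list, fell by 0.79 on the log2 scale (SE 0.23, limma adjusted p = 0.021), RVS161, of the scission amphiphysins, by 0.52 (0.0065), ARK1 by 0.51 (0.010) and APS2 by 0.40 (0.0050). Without Ca replicate 3 the count was 30 lower and 2 higher, beside 22.5% and 23.7% of all genes. It was 7 lower without Ca replicate 1 or any 1 ScNI library, beside 8.2% to 9.65% of genes, and 2 lower in the fit of the 6 libraries alone, beside 5.53%. The median over the 43 genes was −0.17, and −0.36 without that library.

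Ca against Sc[Ca] had 22 of the 43 lower and none higher, beside 19% of all genes called lower and 20.6% called higher, led by YSC84 (log2 −1.15, limma adjusted p = 0.0018), PAL2 (−1.12, 0.0077), ARK1 (−0.69, 0.0012) and BBC1 (−0.63, 0.014). These were 4 of 6 clathrin and AP-2 genes, 4 of 7 other coat-associated genes, 3 of 7 genes of the Las17 module, 4 of 5 kinase, phosphatase and ligase genes, 4 of 5 genes of scission and uncoating and 3 of 13 patch actin genes. The number lower was 9 in the fit of the 6 libraries alone, beside 11.3% of genes, and 12 to 16 without any 1 library other than Ca replicate 3, beside 13.8% to 15.6%. Without Ca replicate 3 it was 34 lower and 2 higher, beside 26.3% and 27.4%.

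Ca against N2 and Sc[Sp] against Sc[At] had 0 of the 43 called in limma and edgeR, with 4 at an unadjusted p under 0.05 in each, and DESeq2 called 0 and 1. Of all genes 0.517% and 13.5% were called in limma. In DESeq2 1.07% and 8.25% of genes were called higher and 0.861% and 11.2% lower. Without Ca replicate 3, Ca against N2 had 11 lower, beside 1.6% of genes, with 26 of the 43 at an unadjusted p under 0.05. Without the N2 and Ca strains, Sc[Sp] against Sc[At] had 5 higher and 1 lower, beside 13.7% and 17.7%. In N2/Ca 4 were higher than in Sc/Sc. They were MYO5 (log2 0.66, limma adjusted p = 0.042), INP52, a phosphatase gene (0.59, 0.024), APL3 of AP-2 (0.49, 0.047) and the kinase gene AKL1 (0.41, 0.036). MYO5 lies on chromosome XIII, whose median was log2 0.46 over Sc/Sc in N2/Ca replicate 1 and 0.04 in replicates 2 and 3. The part of the chromosome in its level was not tested. The dynamin-like VPS1 was lower (−0.38, 0.030) and is named after its value was seen. All genes were at 8.59% higher and 5.76% lower. With genes centred on others of like length the counts turned to 1 higher and 8 lower, beside 8.1% and 13.0% of genes, and DESeq2 gave 5 and 5, beside 12.4% and 11%. Without Sc/Sc replicate 3 the counts were 7 higher and 4 lower, beside 12.6% and 11.2%. Without Sc/Sc replicate 1 they were 2 higher and 1 lower, beside 6.83% and 4.89%. Without Sc/Sc replicate 2 they were 1 higher and 0 lower, beside 5.57% and 2.97%. Without any 1 N2/Ca library limma called 0 of the 43, with 9 to 11 at an unadjusted p under 0.05. Of all genes 3.06% to 4.03% were called higher and 1.59% to 2.39% lower in those fits.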

How the data were processed

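RNA from 24 libraries of 8 strains was sequenced after poly(A) selection with a stranded kit, per the labels' protocols, as single reads of 50 bases, per the series' design text. The submitters' processing notes list the aligner HISAT2 2.2.1, DESeq2 1.28.0, the read trimmer Trimmomatic 0.39, the quality tool FastQC 0.11.9, bcl2fastq 2.20.0.422 and genome build R64, with no counting tool. The values deposited by the authors are signal, namely counts divided by size factors, in a haploid table of 5843 rows and a diploid table of 5730 rows normalised apart, so levels were not tested across ploidy. Division by 1 step per library turned 100% of values into whole reads within 0.001 reads, and the steps matched median-of-ratios size factors. Depth is the sum of those reads.

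Genes with a mean of at least 10 were tested, 5808 haploid and 5727 diploid, leaving out rows of introduced actins. On log2(value + 1), limma 3.58.1 was fitted with its mean-variance trend, once over the haploid and once over the diploid libraries, with Benjamini-Hochberg adjustment over all genes and a threshold of 0.05. Count tests on the recovered reads (edgeR 4.0.16, DESeq2 1.42.0) and the other settings in the closing section were alternatives, and the code was tested on simulated data. The members, the 6 lists of 43 further pathway genes, the mating-type markers and the motifs were chosen with earlier results of these data known. Of the pathway genes past the threshold, the 4 with the largest absolute fold per comparison were named, and the 5 genes outside the list best correlated with the members' mean.

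The main fits did not use replicate numbers, and the replicate block was an alternative setting. Replicate numbers were judged to pair where same-numbered libraries deviated together, with a lowest correlation over 0.1 of their deviations from strain means. This held for Sc[Ca] (0.50), Sc[Sp] (0.39), Sc[At] (0.40) and N2 (0.31) against ScNI and for Sc[Sp] against Sc[At] (0.32). It did not hold for Ca against ScNI (0.06), N2 (−0.31) or Sc[Ca] (0.08), or for N2/Ca against Sc/Sc (−0.07). Where it held, the correlation was highest in replicate 2, the library with the MATalpha pattern, at 0.59 to 0.84. Of the deposited columns of values, 0 were left unused.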

Additional observations from a re-analysis of the deposited data

Results flagged for a closer look

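For 8 members a test of the difference itself separated the strains Ca and Sc[Ca], both compared with ScNI: the contrast of Ca against Sc[Ca] equals the difference of their folds against ScNI and passed in limma. The differences in log2 were −0.49 for SLA1, −0.37 for PAN1, −0.39 for END3, −0.51 for ENT2, −0.47 for EDE1, −0.71 for SYP1, −0.55 for YAP1801 and −0.40 for YAP1802. Of all genes, 19% were called lower in the same contrast. SLA1, SYP1, ENT2 and YAP1802 were called in all 6 fits with 1 library left out. PAN1 was called in 5 of these fits, END3 and EDE1 in 2 each and YAP1801 in 1. Their highest limma adjusted p was 0.054, 0.15, 0.085 and 0.13, in the same order. The fit of the 6 libraries alone called 5 members lower (SLA1, PAN1, ENT2, SYP1 and YAP1802), beside 11.3% of genes. Groups of 3 libraries are too small for a test of single outlying libraries.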

How the results depend on the processing

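The number of called members moved as follows. In fits of the 6 libraries of a comparison alone it was 6 for Sc[Ca], 8 for Sc[Sp] and 2 for Sc[At], each against ScNI. All were higher, beside 7.89%, 23.2% and 11.4% of genes. It was 1 for Ca against ScNI (SYP1) and 5 for Ca against Sc[Ca], all lower, beside 5.53% and 11.3% of genes. Without the N2 and Ca strains it was 6 for Sc[Sp] and 2 for Sc[At] against ScNI and 2 for Sc[Sp] against Sc[At]. All were higher, beside 19.8%, 16.3% and 13.7% of genes. With genes centred on like coding lengths, chosen after seeing the data, it was 4 for Sc[Sp] and 5 for Ca against ScNI and 1 for Sc[Sp] against Sc[At]. Of all genes 10.7% were then higher, 17.0% lower and 5.37% higher, in the same order. DESeq2 gave 1 for Sc[At] against ScNI, 1 for Ca against N2 and 2 for N2/Ca, beside 10.8% of genes higher, 0.861% lower and 12.4% higher. The cause was not tested. A pseudocount of 10, no filter on low values, edgeR and scaling without chromosomes VI, XI and XIII moved no count by over 1.5 times. In the last setting Ca against ScNI had 2.

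Leaving out 1 library gave 0 to 10 members for Ca against ScNI, 0 to 3 for Ca against N2, 4 to 10 for Ca against Sc[Ca], 6 to 10 for any difference among the haploid strains, 0 to 1 for N2 and 0 to 1 for Sc[Sp] against ScNI, 0 to 0 for Sc[Ca] and Sc[At] against ScNI and for Sc[Sp] against Sc[At], and 0 to 2 for N2/Ca. The same fits called 1048 to 2682 of all genes for Ca (1754 with all libraries), 834 to 2174 for N2 (1693), 438 to 804 for Sc[Sp] (1217) and 306 to 986 for Sc[At] (886) against ScNI, 5 to 142 for Ca against N2 (30), 1705 to 3114 for Ca against Sc[Ca] (2303), 186 to 912 for Sc[Sp] against Sc[At] (782) and 266 to 1363 for N2/Ca (822).

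With the replicate block, Sc[Sp] against ScNI had 1 member (YAP1802), where the pairing held, beside 9.35% of genes called higher. Where it did not, Ca against ScNI had 2 and N2/Ca against Sc/Sc 2 (EDE1 and YAP1802). The F test, for which pairing was not judged, had 8. Of all genes 13.3% were then lower in Ca, 9.59% higher in N2/Ca and 56.5% called in the F test. No other count changed.

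Over all genes, fits of 6 libraries alone called 961 genes for Sc[Ca] (1 in the fit of all libraries), 2732 for Sc[Sp] (1217), 741 for Ca (1754), 1391 for Ca against Sc[Ca] (2303) and, for Ca against N2, 0 (30) in limma, with 223 at an unadjusted p under 0.05. Without the N2 and Ca strains the numbers were 4, 2417 and 1801 (886) for Sc[Ca], Sc[Sp] and Sc[At], and 1819 (782) for Sc[Sp] against Sc[At]. DESeq2 called 2 for Sc[Ca], 112 for Ca against N2 and 1344 (822) for N2/Ca.

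No fold of a called member reversed in these settings. With 3 libraries a strain, the 95% confidence interval of a member's log2 fold had a median half-width of 0.28 for haploid comparisons and 0.475 for N2/Ca, so a member that missed the threshold is not shown to be level.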
